A study of Mus musculus with 6 samples.

Results

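The let-7 and miR-98 family comprised 9 of the 596 mouse miRNA assays on the TaqMan cards: let-7a, let-7b, let-7c, let-7d, let-7e, let-7f, let-7g, let-7i and miR-98. The assays were taken by name from the deposited table, without the passenger strands marked by an asterisk. They were read in the whole aorta of 3 EC-Dicerflox and 3 EC-DicerWT mice. EC-Dicerflox mice were VE-Cadherin-CreERT2 Dicer1flox/flox Apoe-/- and EC-DicerWT mice were VE-Cadherin-CreERT2 Dicer1WT/WT Apoe-/- littermates, so that the Cre transgene and the loss of apolipoprotein E were common to both groups. Cre was activated in all mice by tamoxifen, given for 5 days at 2 mg for each 20 g of body weight, and all mice were fed a high-fat diet (21% crude fat, 0.15% cholesterol) for 4 weeks from an age of 6 to 8 weeks. The labels give the mice as male and the methods of the study as female. The VE-cadherin promoter drives Cre in endothelial cells (ECs), and the smooth muscle cells, leukocytes and other cells of the aortic wall keep their Dicer and their miRNAs. In such bulk RNA, fewer cells of a type and less RNA per cell cannot be told apart. Dicer1 mRNA is not read by these cards, so that the deletion could not be checked here from the CT values. Per the methods of the study, PCR of EC-Dicerflox aortas showed the deletion after tamoxifen. The study also reports less Dicer mRNA in EC-Dicerflox than in EC-DicerWT aortas after the same time on the diet. Whether the aortas read on the cards were among those tested is not stated.

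The let-7 miRNAs were among the first miRNAs to be discovered and are conserved from worms to humans. They accumulate as cells differentiate, and they repress growth genes such as Hmga2 and the Ras genes. The RNA-binding protein LIN28 holds let-7 precursors back from Dicer, which cuts the precursor hairpin into the mature strand. A miRNA recognizes its targets mainly through the seed, bases 2 to 8 from the 5′ end, and a family is defined by a shared seed. The study's discussion counts the let-7 family among the miRNAs with fast turnover after Dicer silencing in ECs, and the comparison asks whether its level in the whole aorta differed between the genotypes.

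The mature sequences, shown because they define the family and because the assays must tell nearly identical RNAs apart, are those of RefSeq (GRCm38.p6), which matched all 9 members by name. They are written 5′ to 3′ with the seed in capitals.
let-7a: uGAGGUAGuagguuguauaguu
let-7b: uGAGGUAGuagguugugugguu
let-7c: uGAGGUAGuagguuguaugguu
let-7d: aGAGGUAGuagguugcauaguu
let-7e: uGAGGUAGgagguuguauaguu
let-7f: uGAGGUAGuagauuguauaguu
let-7g: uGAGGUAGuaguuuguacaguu
let-7i: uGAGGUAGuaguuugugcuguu
miR-98: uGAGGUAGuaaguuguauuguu

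All 9 sequences were 22 bases long and shared 1 seed. Counted from 1 at the 5′ end, and with the base of let-7a first, let-7c differed from let-7a by A19G, let-7e by U9G and let-7f by G12A. let-7b differed by A17G and A19G, let-7d by U1A and U16C, let-7g by G12U and U18C, and miR-98 by G11A and A19U. let-7i was the most distant from let-7a, with G12U, A17G, U18C and A19U. In 4 pairs of members (let-7c with let-7b, let-7a with let-7c, let-7a with let-7e, and let-7a with let-7f) the sequences differed at 1 base. How far an assay also read a close relative was not measured here. Of the 1679 mature mouse miRNA names in the sequence table, 11 had this seed: the 9 members, let-7k and miR-1961.

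Members of the family are made from hairpins on several chromosomes, and some of these hairpins lie side by side. On chromosome 13, on the minus strand, let-7a (chr13:48538239-48538260), let-7f (chr13:48537889-48537910) and let-7d (chr13:48536078-48536099) belong to 1 group, with 261 bases between the Mirlet7f-1 and Mirlet7a-1 hairpins and 1714 between those of Mirlet7d and Mirlet7f-1. On the plus strand of chromosome 15, let-7c (chr15:85706616-85706637) and let-7b (chr15:85707325-85707346) overlap the long noncoding RNA gene Lncppara. On the plus strand of chromosome X, let-7f (chrX:151912353-151912374) and miR-98 (chrX:151913229-151913250) overlap the gene of the ubiquitin ligase Huwe1, with 785 bases between their hairpins. let-7c is also encoded at chr16:77599672-77599693 (plus strand), next to Mir99a. let-7e is encoded at chr17:17830366-17830387 (plus strand), overlapping Spaca6 and next to Mir125a. let-7g lies at chr9:106178846-106178867 (plus strand), overlapping Wdr82, and let-7i at chr10:122985698-122985719 (minus strand), with no overlapping gene in the table. Whether these positions are exonic or intronic was not analysed here. let-7a, let-7c and let-7f each have more than 1 gene (Mirlet7a-1 and Mirlet7a-2, Mirlet7c-1 and Mirlet7c-2, Mirlet7f-1 and Mirlet7f-2), and their assays read the sum.

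The deposited value is the CT, the PCR cycle at which the fluorescence of an assay crosses a threshold. A lower CT means more RNA, each further cycle stands for a factor of 2 less RNA under complete amplification, and a well without signal is listed at 40. All 9 members had a CT under 40 in all 6 samples, and 9 of 9 passed the filter of a CT under 40 in at least 1 sample. The 8 let-7 assays were read between cycles 19.0 and 23.6, whereas miR-98 was read between 33.7 and 39.6. let-7c had the lowest mean CT of the family (20.0 over 6 samples, place 25 of the 461 detected miRNAs) and let-7f the highest of the let-7 assays (22.8, place 66). miR-98 took place 380 with a mean CT of 36.3. Comparisons between assays assume that they amplify equally well, which the table does not show.

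let-7c had CT values of 19.5, 19.0 and 21.0 in EC-Dicerflox replicates 1, 2 and 3, and of 19.6, 20.0 and 20.8 in EC-DicerWT replicates 1, 2 and 3. let-7e had CT values of 20.0, 19.5 and 20.9 in EC-Dicerflox and of 20.1, 20.7 and 20.8 in EC-DicerWT mice. let-7c was the most abundant member in 4 samples, and let-7e was in replicate 3 of both groups, with a CT of let-7e minus let-7c of -0.036 and -0.003 cycles. The CT difference between them was 0.348 ± 0.305 cycles (SD, n = 6), which an exact sign-flip test over the samples did not separate (two-sided p = 0.125, adjusted p = 0.2 over the 8 pairs of neighbours).

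A middle group of let-7b, let-7a, let-7i and let-7d followed, and neighbouring members within it were not separated from each other. let-7b had CT values of 20.4, 20.0 and 22.3 in EC-Dicerflox and of 20.5, 20.9 and 22.3 in EC-DicerWT mice. let-7a had CT values of 21.0, 20.2 and 21.8 in EC-Dicerflox and of 20.6, 21.3 and 21.7 in EC-DicerWT mice. Replicate 3 had the highest CT of its group for both miRNAs. let-7i was at 21.0, 20.7 and 22.1 in EC-Dicerflox and at 20.4, 20.9 and 21.7 in EC-DicerWT mice. let-7d was at 20.9, 20.3 and 22.1 in EC-Dicerflox and at 20.6, 21.1 and 21.9 in EC-DicerWT mice. The mean CTs of these 4 miRNAs lay between 21.1 and 21.2. Their neighbouring differences were 0.0497 ± 0.442, 0.0423 ± 0.339 and 0.0128 ± 0.251 cycles (SD, n = 6; exact sign-flip tests, two-sided p = 0.781, p = 0.781 and p = 1).

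let-7g and let-7f were the least abundant let-7 members in all 6 samples. let-7g had CT values of 21.9, 21.4 and 22.9 in EC-Dicerflox and of 21.7, 22.4 and 22.4 in EC-DicerWT mice. let-7f had CT values of 22.7, 22.0 and 23.5 in EC-Dicerflox and of 22.4, 23.6 and 22.5 in EC-DicerWT mice. let-7f was above let-7g in CT in 6 of 6 samples, by 0.673 ± 0.372 cycles (SD, n = 6). The steps from let-7e to let-7b (0.723 ± 0.549 cycles), from let-7d to let-7g (0.970 ± 0.273 cycles) and from let-7f to miR-98 (13.5 ± 2.20 cycles) also had the same sign in 6 of 6 samples. For each of these 4 steps the exact sign-flip test gave a two-sided p of 0.03125, the smallest p it can give, and an adjusted p of 0.0625 over the 8 pairs. Over all pairs of let-7 members, 21 of 28 kept their order in all 6 samples.

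**Figure D1:**
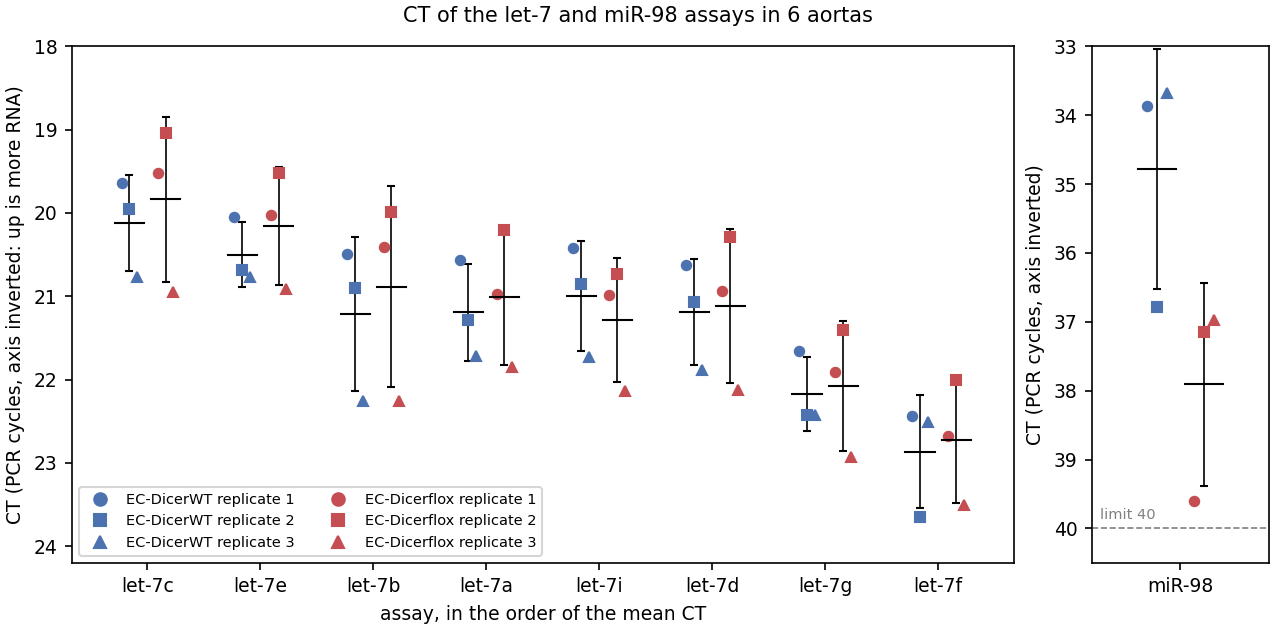
CT in PCR cycles (axis inverted, so that more RNA is higher) of each member in each of 3 EC-DicerWT (blue) and 3 EC-Dicerflox (red) aortas; horizontal lines are group means, bars are SDs, and marker shapes are replicate numbers. The 8 let-7 assays lie between 19.0 and 23.6 with overlapping groups. The 3 EC-Dicerflox values of miR-98 in the separate panel lie at 37.0 or above, and the nearest EC-DicerWT value is 36.8. After subtraction of the control RNAs U6 and snoRNA135, the groups overlap for miR-98.

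Expressed as a share of the summed family signal (2 to the power of minus CT, on the assumption of equal amplification), let-7c made up 25.8% ± 2.14 (SD, n = 3) in EC-Dicerflox and 24.0% ± 2.18 (SD, n = 3) in EC-DicerWT mice. let-7e made up 20.8% ± 2.74 and 18.6% ± 3.40, respectively. let-7i made up 9.50% ± 1.10 in EC-Dicerflox and 13.1% ± 1.40 in EC-DicerWT mice. The share of let-7i was between 8.24% and 10.3% in EC-Dicerflox samples and between 11.5% and 14.2% in EC-DicerWT samples. It was the only member whose shares did not overlap between the groups. On a similar measure, against the mean of the 8 let-7 members, 9.93% of the 453 miRNAs outside let-7 did not overlap. Relative to the control RNAs U6 and snoRNA135, the groups overlapped for let-7i (exact permutation test, two-sided p = 0.6). let-7f ranged more widely in EC-DicerWT (2.05% to 6.69%) than in EC-Dicerflox mice (3.07% to 3.97%). The share of miR-98 was at most 0.00291% in every sample.

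The family's makeup also differed between replicate numbers. In replicate 3 of both groups, let-7b lay 1.345 (EC-Dicerflox) and 1.495 (EC-DicerWT) cycles above let-7e in CT, against 0.212 to 0.466 cycles in the other 4 samples. let-7b was therefore at place 6 of the family in both samples numbered 3 and at place 3 or 4 in the others. Both samples numbered 3 also had the highest median CT of the 350 miRNAs detected in all samples (28.2 and 27.5, against 26.4 to 26.8 in the others). They had the highest CT of the red cell miRNA miR-451 (23.6 and 23.5, against 20.4 to 21.9). The part of these values in the position of let-7b was not tested.

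To compare the genotypes, each CT was reduced by the sample's mean CT of the control RNAs U6 and snoRNA135 (delta CT). Log2 fold changes are given with the sign turned, so that a positive value means more RNA in EC-Dicerflox than in EC-DicerWT mice. No member of the family was shown to differ between the genotypes. Of the 9 members, 0 passed an adjusted p-value of 0.05 (limma with Benjamini-Hochberg adjustment), as did 0 of the 461 miRNAs tested (0%), and the adjusted p-value of every member was 0.923. At an unadjusted limma p-value under 0.05 there were 0 of 9 members, against 3.04% of all miRNAs tested (1.08% higher and 1.95% lower in EC-Dicerflox mice). When the spread was estimated for each miRNA alone by ordinary least squares, 1 member, let-7c, had an unadjusted p-value under 0.05, against 5.21% of all miRNAs tested. The estimates were higher in EC-Dicerflox mice for 7 members (let-7a, let-7b, let-7c, let-7d, let-7e, let-7f and let-7g) and lower for let-7i and miR-98. Of all miRNAs tested, 54.4% had higher estimates. The median log2 fold change was 0.29 over the 9 members and 0.082 over the 461 miRNAs.

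let-7c had delta CT values of 0.637, 0.334 and 0.727 in EC-Dicerflox and of 0.834, 1.01 and 1.16 in EC-DicerWT mice. With this reference, all 3 EC-Dicerflox samples were therefore above every EC-DicerWT sample in let-7c level. Its log2 fold change was 0.44 (standard error 0.25, 95% interval -0.20 to 1.07), a ratio of 1.35 with an interval from 0.872 to 2.10 (limma, unadjusted p-value of 0.139). let-7e had delta CT values of 1.14, 0.815 and 0.691 in EC-Dicerflox and of 1.24, 1.74 and 1.16 in EC-DicerWT mice, again without overlap. Its log2 fold change was 0.50 (standard error 0.29, 95% interval -0.24 to 1.23; limma, unadjusted p-value of 0.143), and it was 0.32 without EC-DicerWT replicate 2. For both miRNAs the two-sided p of the exact permutation test was 0.1, below which 3 samples against 3 cannot go. The groups did not overlap in delta CT for 2 of the 9 members, and for 10.4% of all miRNAs tested. Both were higher in EC-Dicerflox mice, a direction that 6.07% of all miRNAs tested shared and 4.34% opposed. The separation depended on the reference, as the CT of U6 ranged over 0.843 cycles between samples and that of snoRNA135 over 2.282 cycles. With U6 alone as the reference the groups overlapped for both let-7c and let-7e. With snoRNA135 alone they overlapped for let-7e but not for let-7c.

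let-7b had delta CT values of 1.52, 1.28 and 2.04 in EC-Dicerflox and of 1.68, 1.96 and 2.65 in EC-DicerWT mice. The groups overlapped, and the log2 fold change of 0.48 (standard error 0.38, 95% interval -0.48 to 1.45) did not pass the test (limma, unadjusted p-value of 0.259). It was 0.20 without EC-DicerWT replicate 3 and 0.32 without EC-Dicerflox replicate 2. Between samples of the same replicate number (1, 2 and 3), the log2 differences were 0.16, 0.68 and 0.62 for let-7b, 0.20, 0.68 and 0.43 for let-7c, and 0.10, 0.93 and 0.47 for let-7e. With the replicate number as a block, none of these 3 miRNAs had an unadjusted limma p-value under 0.05. let-7a, let-7d and let-7g had log2 fold changes of 0.33, 0.23 and 0.24, with 95% intervals from -0.43 to 1.10, from -0.45 to 0.91 and from -0.51 to 1.00. With 1 sample left out, let-7a ranged from 0.20 (without EC-DicerWT replicate 2) to 0.51 (without EC-Dicerflox replicate 1) and let-7d from 0.10 (without EC-Dicerflox replicate 2) to 0.36 (without EC-DicerWT replicate 1). let-7g was 0.03 without EC-DicerWT replicate 2. With snoRNA202 alone as the reference, let-7a, let-7d and let-7g were at 0.17, 0.07 and 0.08, let-7c at 0.27 and let-7f at 0.13. In the samples numbered 1, each of these 3 miRNAs was lower in EC-Dicerflox than in EC-DicerWT mice (differences of -0.33, -0.23 and -0.17 log2 units), and in the samples numbered 2 and 3 each was higher. The largest of these pair differences were those of replicate 2, at 0.85, 0.54 and 0.78 log2 units.

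let-7f had the widest interval of the let-7 members. Its delta CT values were 3.79, 3.30 and 3.29 in EC-Dicerflox and 3.63, 4.70 and 2.90 in EC-DicerWT mice, the EC-DicerWT samples lying on both sides of all EC-Dicerflox samples. The log2 fold change was 0.29 (standard error 0.52, 95% interval -1.03 to 1.61). Without EC-DicerWT replicate 2 it was -0.19 (limma, unadjusted p-value of 0.643), and without EC-DicerWT replicate 3 it was 0.71 (0.188).

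**Figure D2:**
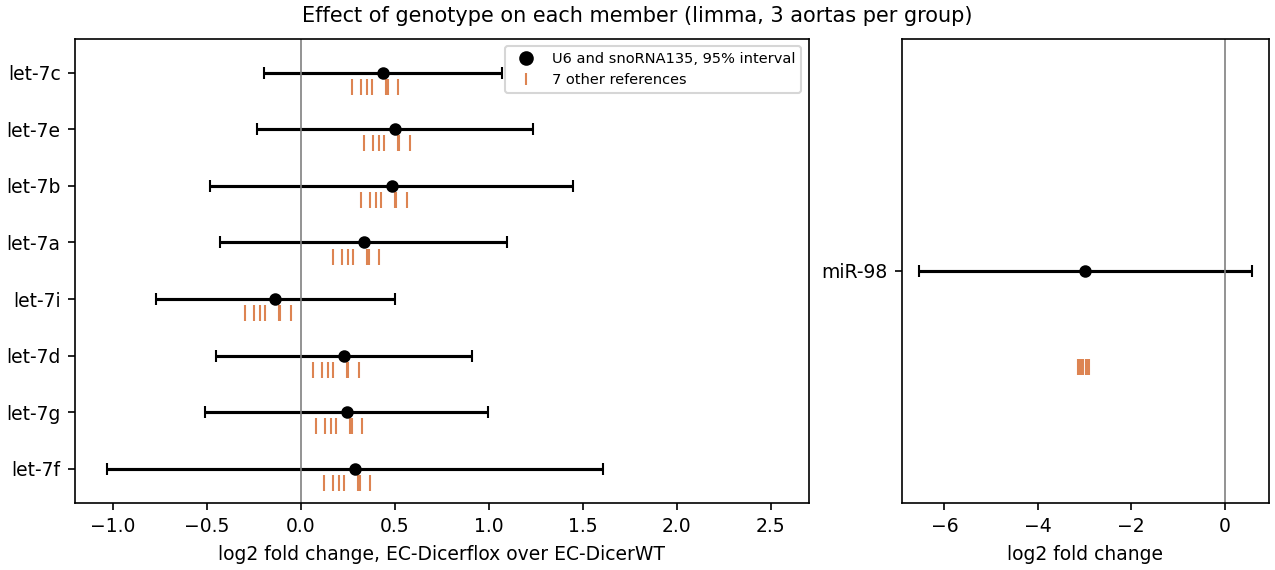
Log2 fold change of each member in EC-Dicerflox over EC-DicerWT aortas (limma, 3 samples per group, black points with 95% intervals, U6 and snoRNA135 as the reference) and under 7 other references (other control RNAs, or the mean or median of all miRNAs; orange ticks); the panels have different axes. All intervals include 0; the ticks of 7 let-7 miRNAs lie above 0, and those of let-7i and miR-98 below 0.

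let-7i was the only let-7 member with a lower estimate in EC-Dicerflox mice with U6 and snoRNA135 as the reference. Its delta CT values were 2.09, 2.04 and 1.91 in EC-Dicerflox and 1.61, 1.91 and 2.12 in EC-DicerWT mice, with overlap. The log2 fold change was -0.14 (standard error 0.25, 95% interval -0.77 to 0.50; limma, unadjusted p-value of 0.614). It was -0.0017 without EC-DicerWT replicate 1, -0.25 without EC-DicerWT replicate 3, and -0.30 with snoRNA202 alone as the reference. A change in the level of let-7i could not be told from the spread between replicates.

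Comparison within the family needs no control RNA, because all assays were read in the same RNA. As planned, the CT of each member was set against the mean CT of the other 8. On this measure let-7a, let-7e and let-7g were higher in all 3 EC-Dicerflox samples than in every EC-DicerWT sample (differences in CT of -0.452, -0.636 and -0.350 cycles; exact permutation tests, two-sided p = 0.1 each). Against the mean of the 9 members, 7.52% of the 452 miRNAs outside the family did not overlap between the groups, and 4.87% were higher in all EC-Dicerflox samples. These differences contain miR-98, whose mean CT was 37.9 in EC-Dicerflox and 34.8 in EC-DicerWT mice, through the mean of the other members. Against the other let-7 members alone, a setting chosen after the values were seen, 1 of the 9 members did not overlap between the groups, namely let-7i. On the planned measure let-7i overlapped between the groups (0.0765 cycles later in EC-Dicerflox mice; exact permutation test, two-sided p = 0.8). Its CT minus the mean of the other 7 let-7 miRNAs was 0.0584, 0.390 and 0.0613 cycles in EC-Dicerflox and -0.361, -0.574 and -0.0370 cycles in EC-DicerWT mice. Relative to the other let-7 miRNAs, let-7i was 0.494 cycles later in EC-Dicerflox mice (0.170 ± 0.191 against -0.324 ± 0.270 cycles, SD, n = 3; two-sided p = 0.1 by exact permutation). The differences were 0.419, 0.964 and 0.0983 cycles for replicates 1, 2 and 3, and the mean difference was between 0.369 and 0.637 cycles when 1 sample was left out. With the mean of the 8 let-7 members as the reference, the log2 fold change of let-7i was -0.43 and did not pass the test (limma, unadjusted p-value of 0.170, adjusted p-value of 0.938). With this reference, 9.93% of the 453 miRNAs outside the let-7 group did not overlap. The 1 of 9 members was near this share, and its separation is therefore not read as a result about let-7i.

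**Figure D3:**
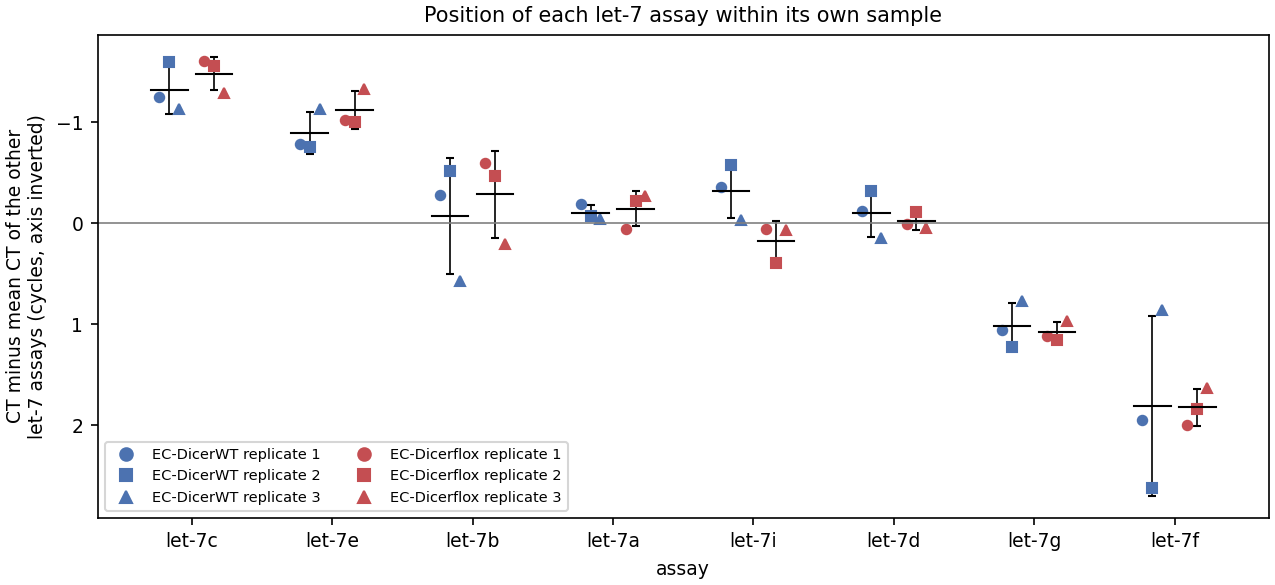
CT of each let-7 assay minus the mean CT of the other 7 let-7 assays of the same sample, in cycles (axis inverted, so that more RNA is higher), for 3 EC-DicerWT (blue) and 3 EC-Dicerflox (red) aortas with group means (lines) and SDs (bars). The groups overlap for 7 assays, and for let-7i the 3 EC-Dicerflox values (0.0584 to 0.390) lie on the side of less RNA of all 3 EC-DicerWT values (-0.574 to -0.0370).

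miR-98, whose hairpin lies beside let-7f-2 on chromosome X, had the largest estimate of the family and the least precise one. Its CT values were 39.6, 37.2 and 37.0 in EC-Dicerflox and 33.9, 36.8 and 33.7 in EC-DicerWT mice. In raw CT all EC-Dicerflox samples were later than every EC-DicerWT sample, the nearest values being 37.0 and 36.8. How many of all miRNAs were separated in raw CT was not counted. After subtraction of the control RNAs the groups overlapped, with delta CT values of 20.7, 18.4 and 16.8 in EC-Dicerflox and of 15.1, 17.8 and 14.1 in EC-DicerWT mice. The log2 fold change was -2.98 (standard error 1.41, 95% interval -6.55 to 0.59; limma, unadjusted p-value of 0.0856), and the exact permutation test gave a two-sided p of 0.2. Pairs of the same replicate number differed by -5.65, -0.61 and -2.68 log2 units. Of its 6 wells, 4 were above a CT of 35. With every CT capped at 35, the log2 fold change was -0.67 (limma, unadjusted p-value of 0.349). It was -4.07 without EC-DicerWT replicate 2 (limma, unadjusted p-value of 0.0326) and -1.94 without EC-Dicerflox replicate 1 (limma, unadjusted p-value of 0.217).

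miR-1961, the other assay on the cards whose RNA has the let-7 seed (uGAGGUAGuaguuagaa), is no member of the family by name. Its CT was similarly late, at 37.1, 34.9 and 34.3 in EC-Dicerflox and at 34.0, 36.1 and 33.6 in EC-DicerWT mice, with overlapping groups. The log2 fold change was -0.76 (standard error 1.32; limma, unadjusted p-value of 0.591). The estimate was 0.25 without EC-Dicerflox replicate 1 and -0.03 without EC-DicerWT replicate 3, and it was -1.79 without EC-Dicerflox replicate 3 and -1.62 without EC-DicerWT replicate 2. As for miR-98, its CT was highest in EC-Dicerflox replicate 1 and lowest in EC-DicerWT replicate 3.

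The spread between replicates was wider for miR-98 than for each let-7 member. The SD within groups of delta CT was 0.186 for let-7c, 0.191 for let-7i and 0.232 for let-7d, and 6.07%, 6.72% and 11.7% of the 461 miRNAs had a smaller SD. It was 0.672 for let-7f, 48.8% of the miRNAs having a smaller SD, and 1.97 for miR-98. Of the miRNAs with a mean CT under 25, the median SD was 0.314 over 127 miRNAs, and of those between 35 and 40 it was 2.11 over 99 miRNAs. The SD of miR-98 was thus near the median of assays at its level. let-7b (0.447) and let-7f were above the median of the miRNAs under a mean CT of 25, and the other 6 let-7 members were below it.

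**Figure D4:**
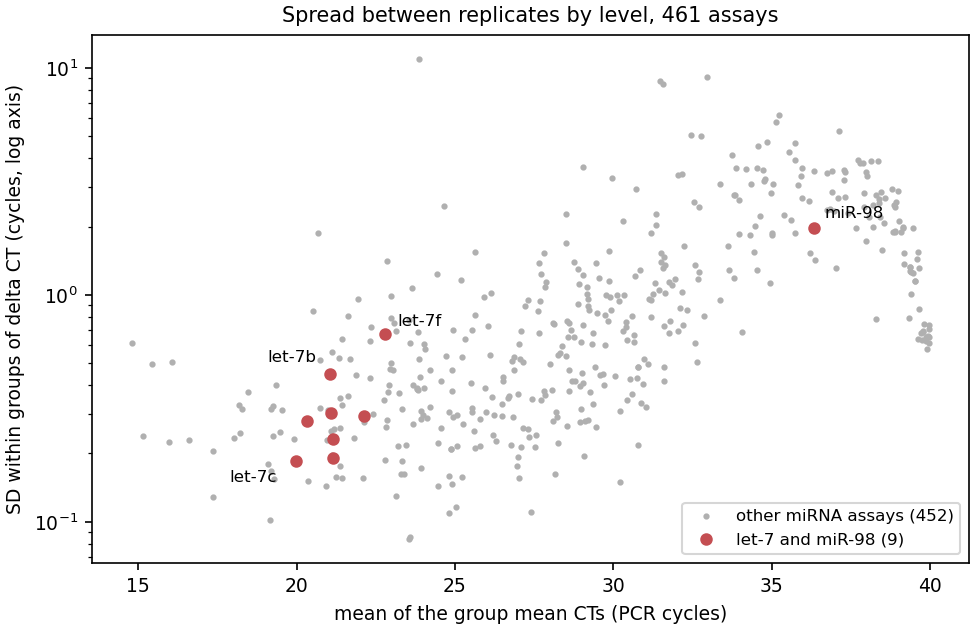
SD within groups of delta CT (cycles, log axis) against the mean of the group mean CTs (PCR cycles) for the 461 miRNAs tested, with the 9 members in red. The let-7 assays lie at early cycles with SDs from 0.186 (let-7c) to 0.672 (let-7f), and miR-98 lies among the late assays with 1.97.

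The passenger strands of 4 let-7 hairpins, which are mostly degraded when the guide strand is loaded onto Argonaute, were read on the other card. let-7a*, let-7c-1*, let-7d* and let-7g* had CT values under 40 in all samples and were 2.99 to 9.40 cycles later than their guide strand in the same sample. Their log2 fold changes were -0.052, -0.098, -0.36 and -0.037 (0 of 4 with an unadjusted limma p-value under 0.05). The passenger minus guide difference in CT overlapped between the groups for all 4. Its mean was 3.66 ± 0.554 cycles in EC-Dicerflox and 3.27 ± 0.245 cycles in EC-DicerWT mice for let-7a, 8.02 ± 0.377 and 7.48 ± 0.561 cycles for let-7c, 7.92 ± 1.34 and 7.32 ± 1.28 cycles for let-7d, and 7.43 ± 0.733 and 7.15 ± 0.430 cycles for let-7g (SD, n = 3). Without EC-Dicerflox replicate 3, the difference between the groups was 0.0763 cycles for let-7a, -0.151 for let-7d and -0.141 for let-7g. For let-7c it was 0.302 without EC-DicerWT replicate 2. These differences set assays of different cards against each other and were not tested.

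Among the miRNAs encoded beside let-7 genes, 4 of 5 were detected, 3 with higher and 1 with a lower estimate in EC-Dicerflox mice and 0 with an unadjusted limma p-value under 0.05. miR-125b-5p, encoded in part 45114 bases from let-7a-2, had an estimate of 0.46 log2 units (standard error 0.24). miR-125a-5p, encoded 367 bases from let-7e, had an estimate of 0.32 log2 units (standard error 0.27), and miR-99b one of -0.22 (standard error 0.31). miR-100 varied most, with CT values of 21.6, 21.2 and 18.5 in EC-Dicerflox and of 19.6, 21.6 and 21.6 in EC-DicerWT mice. miR-99a, encoded 656 bases from let-7c-1, was listed at 40 in all 6 samples.

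The other miRNAs that the study's discussion names for fast turnover had log2 fold changes of -0.15 (miR-103), 0.01 (miR-221) and 0.16 (miR-27b). The study itself, with other software and several control genes for its cards, reports miR-103 as downregulated in EC-Dicerflox aortas after 4 weeks of the diet. The 4 miRNAs named for slow turnover (miR-21, miR-26a, miR-126-3p and miR-23a) had log2 fold changes from 0.25 to 0.70. The 8 let-7 members, from -0.14 to 0.50 with a median of 0.31, overlapped the range of both lists, and the difference between the lists was not tested. No miRNA of either list had an unadjusted limma p-value under 0.05. The study takes these lists from earlier work on ECs, and the whole aorta also holds cells with Dicer.

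The miRNAs that moved most like the family from sample to sample were, by the smallest SD of their CT minus the mean CT of the 9 members over 6 samples, miR-345-5p (0.199), miR-340-5p (0.201) and miR-148b (0.210), among 341 miRNAs with a median of 0.589. With the 8 let-7 members alone, a setting chosen after the values were seen, they were miR-148a (0.0432), miR-136 (0.109) and miR-21 (0.121), with a median of 0.536. miR-148a had CT values of 22.9, 22.4 and 24.0 in EC-Dicerflox and of 22.8, 23.4 and 23.8 in EC-DicerWT mice, and kept a nearly constant distance from the let-7 mean. For comparison, let-7a, the member nearest to the mean of the others, had an SD of 0.123. The smallest values of 341 miRNAs over 6 samples are small in part by selection.

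The tissue showed the miRNAs of the arterial wall, with early CTs for the smooth muscle miRNAs miR-145 (14.7 to 15.0) and miR-143 (16.9 to 18.1) and for the endothelial miR-126-3p (17.1 to 19.1). Both smooth muscle miRNAs had higher estimates in EC-Dicerflox mice, with a median of 0.19 and 0 of 2 at an unadjusted limma p-value under 0.05. The mean delta CT of the 2 endothelial miRNAs was 0.03 to 0.826 in EC-Dicerflox and 1.04 to 1.27 in EC-DicerWT mice. They are the 2 strands of 1 hairpin. With U6 and snoRNA135 as the reference, both were higher in all EC-Dicerflox samples, as 6.07% of all miRNAs tested were. The mean delta CT of the 4 leukocyte miRNAs was 4.18 to 4.70 in EC-Dicerflox and 3.91 to 4.15 in EC-DicerWT mice. Of their estimates, 3 of 4 were lower and 1 (miR-223) was higher in EC-Dicerflox mice, and 45.6% of all miRNAs tested had lower estimates. Taken singly, only miR-142-5p did not overlap between the groups. Of all miRNAs tested, 4.34% were lower in EC-Dicerflox mice without overlap. miR-142-5p had a log2 fold change of -0.996 (limma, unadjusted p-value of 0.00989, adjusted p-value of 0.923), and miR-142-3p, the other strand of its hairpin, had one of -0.38 (unadjusted p-value of 0.330). Of the 4 leukocyte miRNAs, 1 (miR-142-5p) had an unadjusted p-value under 0.05, against 3.04% of all miRNAs tested. Of the red cell and striated muscle miRNAs, 0 had an unadjusted limma p-value under 0.05, with 1 of 2 red cell estimates and 4 of 4 striated muscle estimates higher in EC-Dicerflox mice. Of the heart miRNAs, miR-208b and miR-499 were listed at 40 in all samples, and miR-208 had CT values between 32.9 and 34.5 in EC-Dicerflox replicates 1 and 2 and EC-DicerWT replicate 2 and was listed at 40 in the other 3 samples. The part of the cell makeup of the aortas in the values of the let-7 members was not tested.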

How the data were processed

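Per the methods of the study, Megaplex rodent pools served for reverse transcription and pre-amplification of aortic RNA, followed by TaqMan Array MicroRNA Cards. CT values were deposited by the authors as read, with no normalization. How threshold and baseline were set is not given in the sources used here. Each of the 6 columns was matched to a sample by name, and 0 further sample columns were present. The number of arrays, 3 per group, limits the precision, and each array was 1 replicate.

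Groups were compared with limma 3.58.1 in R 4.3.3 (lmFit and eBayes) on delta CT, over the 461 of 596 mouse miRNA assays that gave a CT below 40 in 1 sample or more, wells without signal at 40, with Benjamini-Hochberg adjustment over all 461. The reference was the mean of U6 and snoRNA135 of both cards (4 values). The cards were told apart by the style of the assay number. For single values, all 20 arrangements of the samples were enumerated in a two-sided exact permutation test, and neighbouring members were compared by sign flips of the within-sample differences (64 patterns). Fits were tested on simulated data.

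The members, lists and settings were chosen with earlier results of these data known. The miRNAs named were all members, the miRNAs of the lists and cell type markers, the control RNAs, and the 3 outside the family with the smallest SD of CT minus the members' mean CT. miR-1961 was named after the sequence table showed its seed. Alternatives were other reference RNAs, other treatments of late or empty wells, other filters, other estimates of the spread, a block for the replicate number, and fits with 1 sample left out. Same-numbered samples deviated together (r = 0.150, 0.224 and 0.431 over 350 miRNAs for numbers 1, 2 and 3). EC-Dicerflox replicate 1 also deviated with EC-DicerWT replicate 2 (r = 0.285) and EC-Dicerflox replicate 2 with EC-DicerWT replicate 1 (r = 0.117), so that only number 3 was set apart. The sources do not say what a number marks.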

Additional observations from a re-analysis of the deposited data

How the results depend on the processing

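No member passed an adjusted p-value of 0.05 in any of the alternatives in which it was fitted, and the direction of let-7a, let-7b, let-7c, let-7e, let-7i and miR-98 stayed as reported in all of them. The number of members with an unadjusted limma p-value under 0.05 was 0 with the reported settings and 1 with the mean of the 9 members as the reference (miR-98 at -2.91 log2 units, unadjusted p-value of 0.0480; 1.95% of all miRNAs), and was also 1 with the ordinary linear model (let-7c, 0.0455; 5.21% of all miRNAs). It ranged from 0 to 1 when 1 sample was left out, and was 1 without EC-Dicerflox replicate 3 (miR-98, -3.92, unadjusted p-value of 0.0471; 4.15% of all miRNAs) and without EC-DicerWT replicate 2 (miR-98, 0.0326; 3.29% of all miRNAs). The median log2 fold change of the members ranged from 0.20 to 0.44 when 1 sample was left out, was 0.13 with snoRNA202 and 0.37 with U6 alone, and was -0.010 with the mean of the 8 let-7 members as the reference, which centres the family by construction. With that reference, chosen after seeing the data, let-7d (-0.069), let-7f (-0.010) and let-7g (-0.053) changed direction, and let-7f did so without EC-DicerWT replicate 2 (-0.19, within a range from -0.19 to 0.71 over the fits with 1 sample left out). In the fit blocked on the replicate number, the median log2 fold change remained 0.29, 0 members had an unadjusted p-value under 0.05, and no call changed.

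The number of members that did not overlap between the groups relative to the other members was 3, was 1 against the let-7 members without miR-98, and ranged from 3 to 6 when 1 sample was left out (6 without EC-Dicerflox replicate 3 and 6 without EC-DicerWT replicate 2). Against the let-7 members without miR-98 it ranged from 1 to 3. Of the miRNAs outside the family, 7.52% did not overlap against the mean of the 9 members, with a range from 12.6% to 24.1% when 1 sample was left out (20.6% without EC-Dicerflox replicate 3 and 24.1% without EC-DicerWT replicate 2). Against the mean of the 8 let-7 members, 9.93% of the miRNAs outside let-7 did not overlap, and 16.6% to 21.6% with 1 sample left out. The number of neighbouring steps with the same sign in every sample was 4 with each sample left out. With only miRNAs under a CT of 35 in all samples, miR-98 could not be fitted. Differences smaller than the 95% intervals given for each member could not be resolved with 3 arrays per group.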
